A study of Mus musculus with 2 samples.

Results

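The muscle miRNAs, often called myomiRs, were examined in microvesicles (MVs) released by mouse bone marrow mesenchymal stem cells (MSCs). They were found by name among the 831 mouse miRNA entries of the array. Each entry with the stem miR-1, miR-1a, miR-1b, miR-133a, miR-133b, miR-206, miR-208a, miR-208b or miR-499 was taken, with any arm. This gave 12 entries from the stems miR-1a, miR-1b, miR-133b, miR-206, miR-208a, miR-208b and miR-499. The MSCs were cultured for 48 h in medium with serum, either with erythropoietin (EPO, 100 IU/ml per the labels; EPO-MVs, 1 array) or without it (MSC-MVs, 1 array). MVs of both groups were collected from the culture supernatant by ultracentrifugation, and their total RNA was labelled with Hy3. Because each condition had 1 array, no value has a replicate error and no test was possible. An effect of the array and an effect of EPO cannot be told apart.

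MiRNAs are short RNAs that pair, mainly through a seed at bases 2 to 8, with messenger RNAs and lower their output. The miR-1 and miR-133 families are transcribed together from linked genes in skeletal and cardiac muscle, where miR-1 and miR-206 promote differentiation and miR-133 supports myoblast proliferation. The miR-208 and miR-499 family lies in introns of myosin heavy chain genes and takes part in the choice of cardiac and slow-fibre myosins. In each hairpin one arm usually serves as the guide that is loaded into the silencing complex, while the other arm is mostly degraded.

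The mature sequences below are those on which the comparisons turn, namely the guide arms and the passenger arms of miR-206, miR-1a-1, miR-208a and miR-499. They come from RefSeq on the mouse assembly GRCm38.p6, where 9 of the 12 entries were matched by name. Seeds are in capitals. No sequence is shown for mmu-miR-1a-2-5p, mmu-miR-1a-3p and mmu-miR-1b-5p.
mmu-miR-206-3p: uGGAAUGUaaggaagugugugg
mmu-miR-206-5p: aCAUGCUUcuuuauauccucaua
mmu-miR-1a-1-5p: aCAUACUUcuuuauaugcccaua
mmu-miR-133b-3p: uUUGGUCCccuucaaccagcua
mmu-miR-208a-3p: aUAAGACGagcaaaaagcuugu
mmu-miR-208b-3p: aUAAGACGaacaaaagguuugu
mmu-miR-208a-5p: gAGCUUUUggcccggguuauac
mmu-miR-499-5p: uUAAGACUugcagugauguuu
mmu-miR-499-3p: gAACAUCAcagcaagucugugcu

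Mir206 (miR-206-3p at chr1:20679055-20679076, plus strand) and Mir133b (miR-133b-3p at chr1:20682834-20682855, plus strand) both lie within the annotated span of Lincmd1, a long noncoding RNA gene. Mir1a-1 (miR-1a-1-5p at chr2:180389057-180389079, plus strand) lies within its host gene Mir1a-1hg. The miR-208 genes lie within cardiac myosin genes on the minus strand, Mir208a in Myh6 (miR-208a-3p at chr14:54949072-54949093) and Mir208b in Myh7 (miR-208b-3p at chr14:54975710-54975731). Mir499 lies within Myh7b (miR-499-5p at chr2:155622893-155622913, plus strand). The sequences of miR-208a-3p and miR-208b-3p have the same seed and are equal at 19 of 22 positions, counted from 1 at the 5′ end, with the substitutions G10A, A16G and C18U from miR-208a-3p to miR-208b-3p. The passenger arms miR-1a-1-5p and miR-206-5p are equal at 20 of 23 positions (A5G, G17C and C19U from miR-1a-1-5p to miR-206-5p), and the first of these substitutions lies in the seed. Whether an RNA of one of these pairs binds the probe of the other was not tested.

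The deposited value is a normalized intensity on a linear scale. All values of an array were whole multiples of its smallest one, here called a step, so a value in steps shows how far an entry lay from the dim end. A step is worth slightly less on the EPO-MV array than on the MSC-MV array (0.949 of it), so equal numbers of steps are not equal intensities. The median entry had 97 steps on the EPO-MV array and 87 steps on the MSC-MV array. The normalized intensities of all entries summed to 1957 and 2147. On these arrays 6 of 6 entries of stromal miRNAs had ranks between 3 and 44, from miR-21a-5p to miR-214-3p, with ratios of EPO-MV to MSC-MV between 0.648 and 0.873. Their normalized intensities summed to 157.9 for EPO-MVs against 205.0 for MSC-MVs. The 6 entries of blood cell miRNAs had sums of 67.6 and 79.9, and miR-142-3p, a miRNA of haematopoietic cells, ranked 8 on both arrays. Their ratios lay between 0.659 and 1.75, with miR-150-5p (1.36) and miR-144-3p (1.75) above 1 and the other 4 below 1. The liver miRNA miR-122-5p lay near the dim end, at 8 steps for EPO-MVs against 7 for MSC-MVs. The neural miR-124-3p had 99 and 73 steps and miR-9-5p had 30 and 15 steps. The part that RNA of other cells or of the serum has in the muscle miRNA values was not tested.

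Of the 12 muscle miRNA entries, 9 lay below the median entry on both arrays and 3 lay above it on both arrays. The 3 were miR-206-3p, miR-1b-5p and miR-208a-5p. The entries spanned 6 to 520 steps for EPO-MVs against 8 to 498 steps for MSC-MVs, and none was at the smallest value of either array. Their share of the total intensity was 0.130% for EPO-MVs against 0.114% for MSC-MVs, of which miR-206-3p alone made up 43.4% and 45.6%. Probes differ in how brightly they bind, so these positions describe the signal of each probe and not the relative abundance of the miRNAs.

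**Figure D1:**
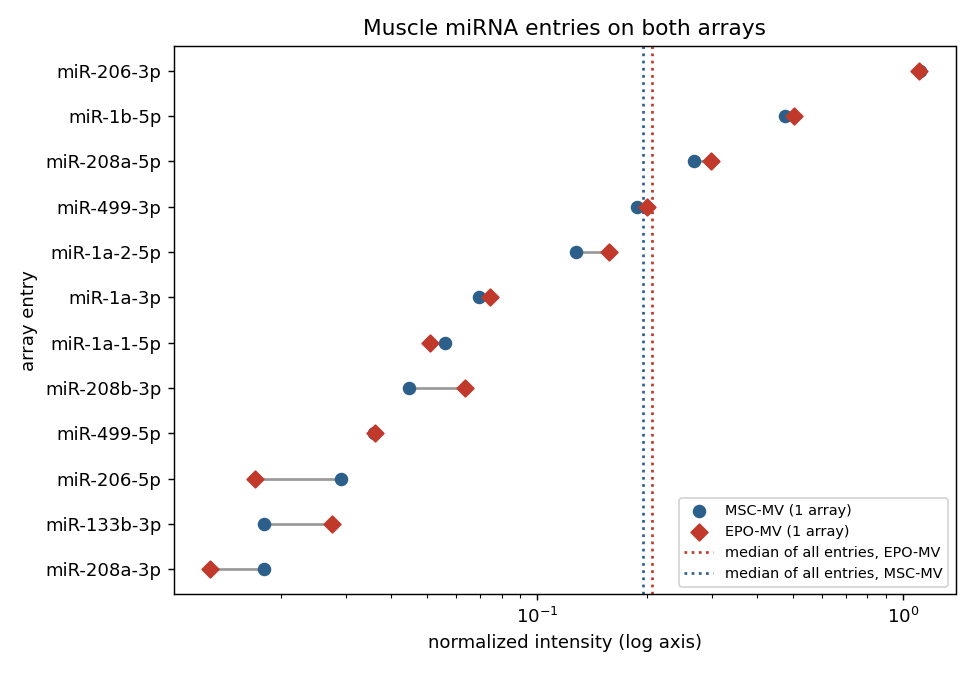
Normalized intensity (log axis) of the 12 muscle miRNA entries on the EPO-MV array (diamonds) and the MSC-MV array (circles), 1 array each, with the median of all 831 entries as dotted lines. The points of miR-206-3p nearly coincide at 1.104 and 1.114, whereas those of the dim entries miR-206-5p, miR-133b-3p and miR-208a-3p lie apart.

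The change counted was a ratio of EPO-MV to MSC-MV of at least 1.5, or at most its inverse. Of the 12 muscle miRNA entries, 2 were counted (16.7%) against 25.4% of all 831 entries. One was higher in EPO-MVs (all entries 17.8%) and one was lower (all entries 7.58%). The other 10 stayed within 1.5-fold. At a fold of at least 2 none of the 12 was counted, against 10.6% of all entries, and at a fold of at least 1.2 there were 5 (41.7%) against 55.4%. The ratios ranged from 0.584 to 1.54 with a median of 1.06, and the median over all entries was 1.04. The ratio was above 1 for 8 of the 12 entries and for 56.1% of all entries. These shares describe a pair of arrays, and no difference between the list and the other entries was tested.

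In the miR-1 family, to which miR-206 belongs by its seed, the guide arm mmu-miR-206-3p is specific to skeletal muscle. It had a normalized intensity of 1.104 in EPO-MVs (520 steps) and 1.114 in MSC-MVs (498 steps). The ratio was 0.991, the closest to 1 in the family, and the entry ranked 198 and 205 of 831. As a ratio of steps, used here for values without the authors' normalization, the EPO-MV value was the higher one (1.04). That reading assumes that 1 step is the same raw amount on both arrays, which the sources do not give. With 75th percentile scaling the ratio was 1.03, so the direction depends on the scaling.

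The other arm of the same hairpin, mmu-miR-206-5p, was one of the 2 entries counted as changed. It had 0.0170 in EPO-MVs (8 steps) and 0.0291 in MSC-MVs (13 steps), a ratio of 0.584. The ratio stayed past the threshold when either value was moved 1 step toward an equal ratio (0.657 and 0.633), but not with the pseudocount (0.860). The 2 arms of miR-206 thus had ratios of 0.991 and 0.584, with the ratio farther from 1 at the entry with 8 and 13 steps.

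The cardiac and skeletal guide arm mmu-miR-1a-3p had 0.0743 in EPO-MVs (35 steps) and 0.0694 in MSC-MVs (31 steps), a ratio of 1.07, which turned to 0.903 with lowess. For mmu-miR-1a-1-5p, whose sequence is close to miR-206-5p, the values were 0.0510 (24 steps) and 0.0559 (25 steps), a ratio of 0.911. The passenger arm mmu-miR-1a-2-5p had 0.157 (74 steps) and 0.128 (57 steps), a ratio of 1.23. For mmu-miR-1b-5p the values were 0.503 (237 steps) and 0.477 (213 steps), a ratio of 1.06. All 4 miR-1 entries therefore lay within 1.5-fold, with 3 of them above and 1 below a ratio of 1 in the deposited values.

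The other entry counted as changed was mmu-miR-133b-3p, the guide arm of the gene next to Mir206. It had 0.0276 in EPO-MVs (13 steps) and 0.0179 in MSC-MVs (8 steps), a ratio of 1.54. Its direction was opposite to that of miR-206-5p. A shift of 1 step toward an equal ratio in EPO-MVs gave 1.42 and in MSC-MVs 1.37, both under the threshold. After re-centring on the median of all entries the ratio was 1.49, with quantile normalization 1.03, with lowess 1.08 and with a pseudocount 1.13. The ratio stayed past the threshold after re-centring on entries with at least 30 steps on both arrays (1.54). It also did so with 75th percentile scaling (1.6) and as a ratio of steps (1.63). The linked miRNAs miR-133b-3p, miR-206-3p and miR-206-5p thus had 3 ratios that lay on both sides of 1.

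In the miR-208 and miR-499 family, the guide arms with an identical seed had ratios on opposite sides of 1. The entry mmu-miR-208a-3p, whose gene lies in that of the alpha cardiac myosin heavy chain, had 0.0127 in EPO-MVs (6 steps) and 0.0179 in MSC-MVs (8 steps), a ratio of 0.712. It was the dimmest of the 12 entries on the EPO-MV array and shared the lowest value with miR-133b-3p on the MSC-MV array. The entry mmu-miR-208b-3p, whose gene lies in that of the beta cardiac and slow skeletal myosin heavy chain, had 0.0637 (30 steps) and 0.0447 (20 steps), a ratio of 1.42. Neither passed 1.5-fold with the deposited values. The ratio of miR-208a-3p was past it with quantile normalization (0.440) and with lowess (0.448), but it was 0.931 with the pseudocount and 0.830 or 0.813 when a value moved 1 step toward an equal ratio. That of miR-208b-3p was 1.50 as a ratio of steps, 1.16 with quantile normalization and with lowess, and 1.19 with the pseudocount. The other arm of the first hairpin, mmu-miR-208a-5p, had 0.299 (141 steps) and 0.268 (120 steps), with a ratio of 1.12.

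Both arms of miR-499 lay close to a ratio of 1 in the deposited values. The article reports miR-499, with no arm named, as significantly up-regulated in EPO-MVs in a comparison with replicates. The single arrays used here do not test that report. The guide arm mmu-miR-499-5p had 0.0361 in EPO-MVs (17 steps) and 0.0358 in MSC-MVs (16 steps), a ratio of 1.01. Moving either value by 1 step of its own array toward an equal ratio gave 0.949. With lowess the ratio was 0.774. The passenger arm mmu-miR-499-3p had 0.200 (94 steps) and 0.188 (84 steps), a ratio of 1.06, and ranked 419 on both arrays. With lowess its ratio was 0.994, so neither arm of miR-499 has a direction that holds under every scaling. The seed of miR-499-5p, UAAGACU, differs at its last base from UAAGACG, the seed of miR-208a-3p and miR-208b-3p. These 3 guide arms had ratios of 1.01, 0.712 and 1.42. Apart from the miR-208 pair, no entry matched to RefSeq had exactly the seed of a muscle miRNA shown here. This search left out miR-1a-2-5p, miR-1a-3p and miR-1b-5p, which had no sequence. It therefore could not show seeds shared within the miR-1 family, such as that of miR-206-3p and miR-1a-3p.

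Over both arrays, the entries nearest to miR-499-3p by Euclidean distance between log2 intensities were miR-5622-5p (0.04), miR-201-5p (0.08) and miR-212-3p (0.11). Nearest to miR-499-5p were miR-184-3p (0.08), miR-1953 (0.12) and miR-683 (0.13). For miR-206-3p they were the shared entry of the miR-466 -3p arms (0.05), miR-574-5p (0.08) and miR-361-5p (0.11). With 2 arrays this likeness means only a similar brightness and a similar ratio.

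The size of the ratios went with the intensity of the entries. The 831 entries were cut into 4 groups of like size by their mean log2 intensity. The direction of the calls went with brightness too, with 96 entries higher and 31 lower in EPO-MVs in the dimmest group and 2 higher and 15 lower in the brightest. Of the dimmest group, 61.1% passed 1.5-fold, and the central span of their ratios, from the 5th to the 95th percentile, was 0.435 to 6.64. This group held 6 of the muscle miRNA entries, among them both that were counted. The ratio of miR-133b-3p lay at the 56.5th percentile of this group and that of miR-206-5p at the 10.6th. In the next group, which held miR-1a-3p, miR-1a-2-5p and miR-499-3p, 22.1% passed and the span was 0.717 to 1.83. The third group held miR-1b-5p and miR-208a-5p, with 10.1% passing, and the brightest held miR-206-3p, with 8.21%. At least 30 steps on both arrays were reached by 6 of the 12 entries, of which 0 passed 1.5-fold, against 10.8% of the 573 entries that reached it.

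**Figure D2:**
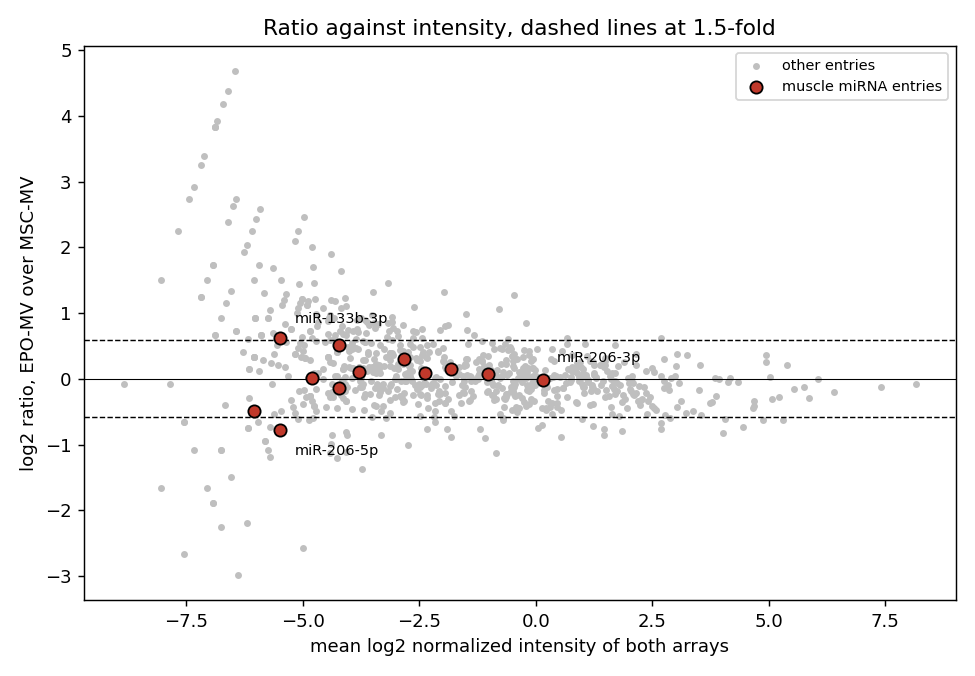
Log2 ratio of EPO-MV to MSC-MV against mean log2 intensity for the 831 entries (grey) and the 12 muscle miRNA entries (red), with dashed lines at 1.5-fold. The 2 muscle miRNA entries outside the lines, miR-133b-3p and miR-206-5p, are dim and lie within the wide spread of ratios at that intensity, while miR-206-3p lies at -0.01.

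**Figure D3:**
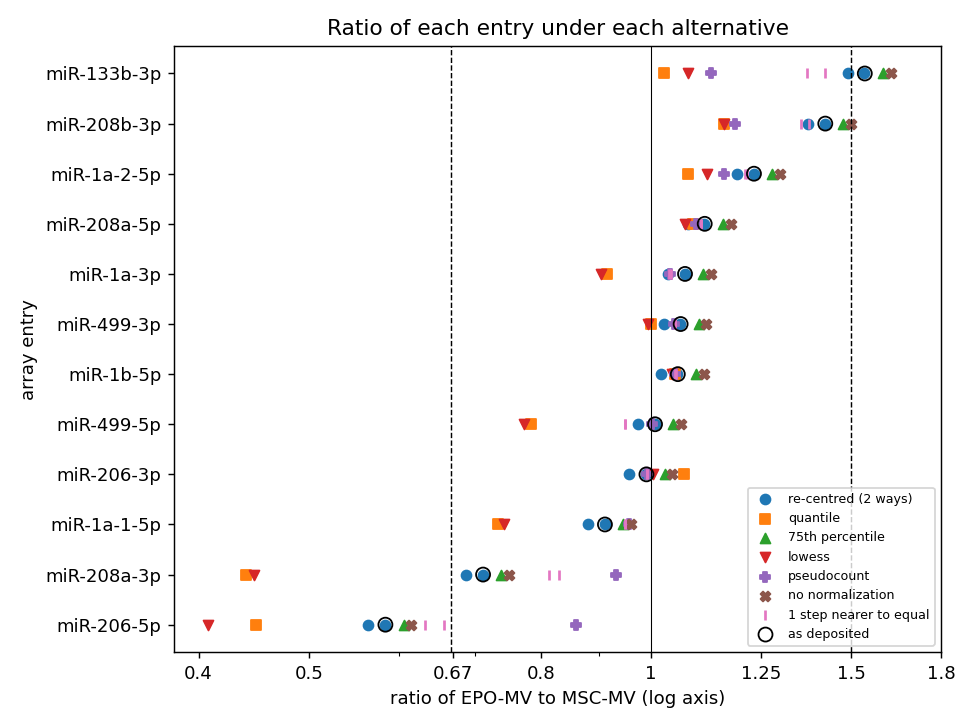
Ratio of EPO-MV to MSC-MV (log axis) of each muscle miRNA entry with the deposited values (open circles) and under other scalings, a pseudocount or a shift of 1 step, with dashed lines at 1.5-fold. The entry miR-133b-3p ranges from 1.03 to 1.63 and miR-206-5p from 0.408 to 0.860, whereas miR-1b-5p stays between 1.02 and 1.11.

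The other miRNAs with known roles in muscle cells were taken as a list of 48 entries outside these stems. They were taken by stem with any arm, and which arm has the known role was not considered. Of these, 3 passed 1.5-fold as higher in EPO-MVs (6.25%, all entries 17.8%) and 7 as lower (14.6%, all entries 7.58%), so that 20.8% passed in either direction against 25.4% of all entries. The other 38 stayed within 1.5-fold. Their median ratio was 0.859, and that of all entries was 1.04. The list holds entries of up to 24217 steps, and the part that brightness has in its counts was not tested. Among the 33 entries of miRNAs that promote myogenic differentiation, 3 were higher and 5 lower, which is 24.2% against 25.4% of all entries. The lower ones included miR-29a-3p, a bright entry at 12.1 against 21.5 (ratio 0.563), miR-181b-5p (0.590) and miR-322-5p (0.661). The dim miR-181a-2-3p (0.459) and miR-29b-2-5p (0.649) were also lower. The 3 higher ones were at most 27 steps on either array, namely miR-431-3p (4.27), miR-378a-5p (2.47) and miR-675-3p (1.90). The opposite arms of these 3 were brighter and stayed within 1.5-fold. Their log2 ratios were 0.29 (miR-431-5p), -0.47 (miR-378a-3p) and 0.22 (miR-675-5p). Of the 11 entries of miRNAs that oppose differentiation, 1 passed (9.09%, all entries 25.4%), miR-222-5p, with 6 and 34 steps (ratio 0.168). The opposite arm, miR-222-3p, had 1558 and 2008 steps and a log2 ratio of -0.44, within 1.5-fold. Of the 4 smooth muscle entries, 1 passed (all entries 25.4%), miR-143-3p, with 15024 and 22016 steps (ratio 0.648). The 3 brightest entries of the list were miR-24-3p (ratio 0.914), miR-125b-5p (0.822) and miR-143-3p.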

How the data were processed

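RNA of 1 EPO-MV and 1 MSC-MV preparation was hybridized to the miRCURY LNA Array (version 18.0), whose capture probes contain locked nucleic acids. Per the labels and methods, the authors scanned the arrays, read them with GenePix Pro, averaged repeated spots and scaled each array by the median, with the scaling factor based on miRNAs that reached an intensity of 30 on every array. The intensity deposited by the authors is linear. The channel read and any background correction are not given in the sources used here, and the number of arrays limits the precision.

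Each value was divided by the smallest value of its array and rounded, and the unit was then refitted over all entries. Values divided by the refitted unit were whole numbers (steps) to within 0.0001. An intensity of 1 was worth 471 steps (EPO-MV array) or 447 steps (MSC-MV array). Ratios used no filter or pseudocount, and the threshold of 1.5 is the one the article used. No test was run. There were 11 alternatives planned and 3 added after the values were seen. All 12 entries are named, with the 3 nearest entries of miR-206-3p and both miR-499 arms, and from the other muscle list those past 1.5-fold and the 3 brightest. Marker and muscle lists and members were chosen with earlier results of these data known. Python 3.11.15, pandas 2.3.3, numpy 2.4.6, statsmodels 0.14.6 and matplotlib 3.10.9 were used.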

Additional observations from a re-analysis of the deposited data

How the results depend on the processing

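With the deposited values 1 muscle miRNA entry was higher (miR-133b-3p) and 1 lower (miR-206-5p) in EPO-MVs, and 148 and 63 of all entries were. At a fold of at least 2 these became 0 and 0, with 67 and 21 of all entries, and at 1.2 they became 3 and 2, with 278 and 182. Keeping only entries that reached 30 steps on both arrays gave 0 and 0 (all entries 34 and 28), and on either array 0 and 0 (67 and 36). Re-centring on all entries gave 0 and 1 (134 and 71). Re-centring on entries with at least 30 steps on both arrays gave 1 and 1 (147 and 64), and 75th percentile scaling 1 and 1 (163 and 52). Quantile normalization gave 0 and 2 (94 and 94) and lowess 0 and 2 (92 and 96); both bring the arrays together by construction. The pseudocount of 0.0573, which shrinks dim ratios by construction, gave 0 and 0 (29 and 25). Without normalization, taken as ratios of steps and added after the values were seen, there were 2 and 1 (173 and 51). Leaving the brightest entry out of the sum moved the share of intensity held by the 12 entries to 0.152% for EPO-MVs and 0.132% for MSC-MVs. Otherwise the cause was not tested. The median log2 ratio of the 12 entries, 0.08, lay between -0.0016 with lowess and 0.16 for ratios of steps. No paired analysis was possible because there was only 1 array of each kind. Background was not measured in the values used here, so no entry can be called above it.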
